A study of Mus musculus with 8 samples.

Results

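The genes described here are those of polysialylation in the mouse heart: the 6 alpha-2,8-sialyltransferase genes St8sia1 to St8sia6, and Ncam1 and Ncam2, the genes of the neural cell adhesion molecules. They were chosen as a family after St8sia4 was seen to be among the genes with the largest falls in hearts of mice given digoxin, so their differences between digoxin and vehicle hearts are given as a description, with no test. All 8 genes were measured, among 22180 genes in all, each by the probe sets annotated to its symbol alone. These were 2 probe sets for St8sia5 and 1 for each other gene, and 3 further probe sets that the annotation assigned to a member together with another gene were not used. The hearts came from male wild-type mice aged 8 to 10 weeks, of the strain C57BL6JRj by their labels, which the growth protocol writes as C57BL6/J, and kept on standard chow. Each mouse received a single intraperitoneal injection at ZT5 and was killed at ZT9, where ZT0 is lights-on. The digoxin group (5 arrays) received digoxin, a cardiac glycoside that inhibits the Na/K-ATPase, at 1 mg/kg, and the vehicle group (3 arrays) the solvent alone, a mixture of ethanol, propylene glycol, citric acid and sodium phosphate. The design text counts 1 vehicle sample more, which was not analysed here. Heart tissue was pulverised before RNA extraction, so RNA of all its cell types was measured together.

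Polysialic acid is a long chain of sialic acid residues joined by alpha-2,8 bonds and carried mainly by the neural cell adhesion molecule NCAM, whose adhesion it weakens by its bulk and negative charge. The polysialyltransferases encoded by St8sia2 and St8sia4 build the chain on N-glycans, using CMP-sialic acid made in the nucleus and moved into the Golgi, while the other family members add single or few sialic acids to gangliosides or glycoproteins. St8sia2 is known mainly from development and St8sia4 from adult tissue, including cells of the immune system. In muscle and heart NCAM is found at cell contacts and on nerves.

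Expression was measured on Affymetrix Mouse Gene 2.0 ST arrays. The deposited log2 values had been centred probe set by probe set. Hence 0 is a reference that is not stated, a value gives a difference between arrays, and no absolute level or comparison of levels between genes can be drawn from it. For the same reason the labelled tissue could not be checked by the presence of heart markers. A log2 difference of 1 is a doubling. By the labels the samples of a group are numbered separately, and 1 array was taken to stand for 1 mouse, so the spread is that between these samples. Their number limits the precision. The array files of the vehicle hearts are numbered 10 to 12 and those of the digoxin hearts 13 to 17, so the order of the arrays cannot be told apart from the treatment. Vehicle replicate 3 stood apart with an interquartile range of 0.216 over all probe sets, against 0.0792 to 0.115 on the other arrays, and the changes of the genes and pathway lists named are also given without it where that turned their sign or moved them by over 1.5 times.

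St8sia4 and St8sia2 encode the pair of enzymes able to build polysialic acid on NCAM, and the bases before their annotated starts are shown because the values below turn on this pair. The sequences are those of RefSeq on build GRCm38.p6, 250 bases each, 5′ to 3′ on the strand of the gene, and capitals mark the matches to the motifs that were searched. The St8sia4 stretch lies on the minus strand at chr1:95667595-95667844 and the St8sia2 stretch on the minus strand at chr7:74013683-74013932.
St8sia4: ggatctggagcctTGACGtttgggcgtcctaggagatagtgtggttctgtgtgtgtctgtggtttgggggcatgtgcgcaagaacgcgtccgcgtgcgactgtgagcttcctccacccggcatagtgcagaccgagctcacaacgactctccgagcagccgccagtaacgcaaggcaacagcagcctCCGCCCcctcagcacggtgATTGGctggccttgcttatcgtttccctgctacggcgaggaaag
St8sia2: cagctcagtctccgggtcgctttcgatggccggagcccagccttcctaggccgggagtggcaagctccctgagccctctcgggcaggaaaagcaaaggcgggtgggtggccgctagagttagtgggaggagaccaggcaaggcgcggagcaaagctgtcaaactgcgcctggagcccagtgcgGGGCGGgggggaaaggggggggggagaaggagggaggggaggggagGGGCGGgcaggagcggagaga
The 5 motifs searched on both strands were the CCAAT box (CCAAT), the GC box (GGGCGG), the core of the cyclic AMP response element (TGACG), a glucocorticoid response element half-site (AGAACA) and the E-box (CACGTG). None of their matches in these stretches overlapped another. The St8sia4 stretch held 1 CCAAT box and 1 GC box, both on the opposite strand, and 1 cyclic AMP response element core on the strand shown. The St8sia2 stretch held 2 GC boxes. Neither stretch held the glucocorticoid half-site or the E-box, which says only that these letters are not in these windows. Of the other members searched, St8sia1 held 1 CCAAT box, 1 GC box and 1 glucocorticoid half-site. St8sia6 held 1 cyclic AMP response element core and Ncam2 held 2 GC boxes. Among 32851 RefSeq regions of the same length before annotated starts, 33.8% held the CCAAT box, 32.7% the GC box, 17.8% the cyclic AMP response element core, 16.1% the glucocorticoid half-site and 6.02% the E-box on either strand. The GC content was 60.4% for St8sia4 and 68.8% for St8sia2, against a median of 52.4% over these regions. The array data do not measure binding at these sequences.

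St8sia4, the polysialyltransferase gene of adult tissue, was lower in all 5 digoxin hearts than in any vehicle heart. Its centred log2 value was -1.18, -0.82, -0.78, -0.84 and -0.77 in digoxin replicates 1 to 5, and 0.11, 0.23 and -0.28 in vehicle replicates 1 to 3. Digoxin replicate 1 was the lowest of all, the other 4 digoxin hearts lay close together, and vehicle replicate 3 was the lowest of the vehicle hearts. The gap between the highest digoxin and the lowest vehicle value was 0.49. The means were -0.88 ± 0.17 (SD, n = 5) and 0.019 ± 0.26 (SD, n = 3), a log2 change of -0.90 (SE 0.13), so that the vehicle level was 1.86 times the digoxin level. Ordered from the most negative change, St8sia4 stood at rank 13 of the 22180 genes. Without vehicle replicate 3 the change was -1.04, and without digoxin replicate 1 it was -0.82. In bulk tissue, fewer cells of a type and less RNA per cell cannot be told apart.

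**Figure D1:**
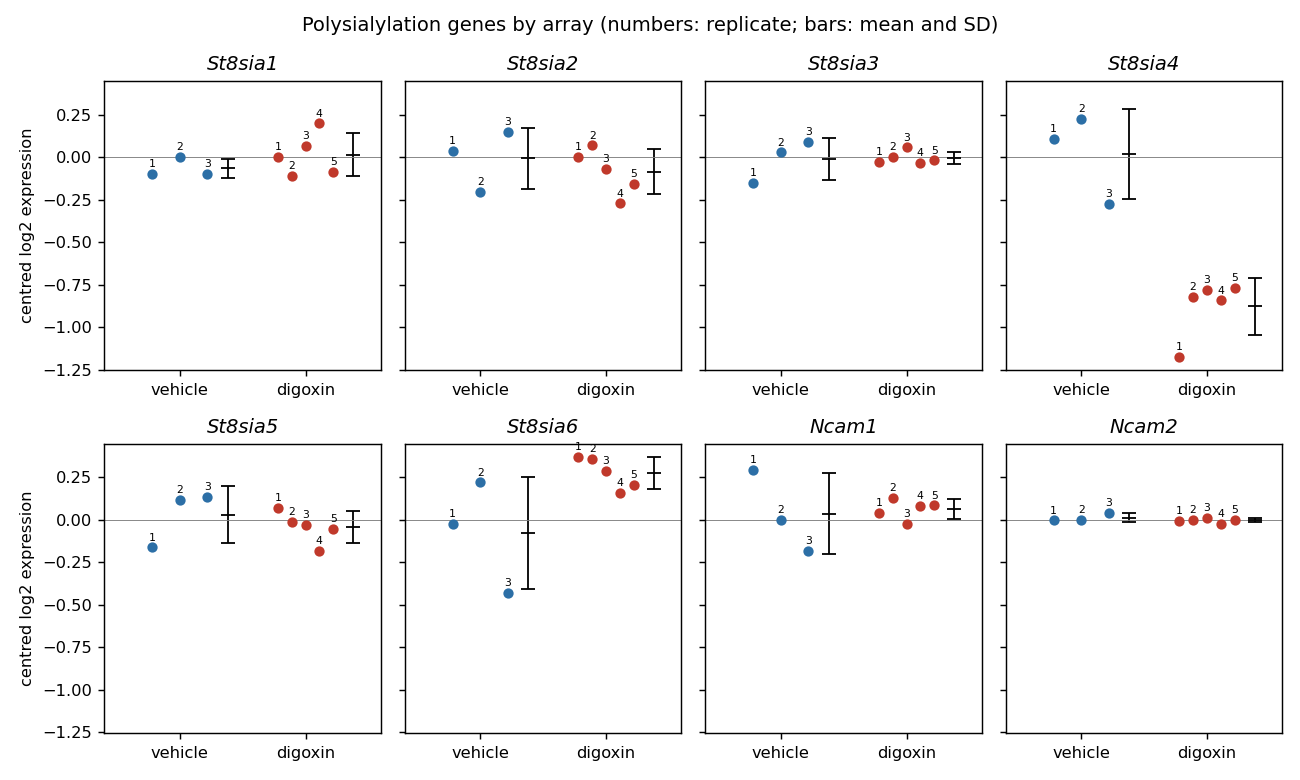
Centred log2 expression (vertical axis, same scale in each panel) of the 8 polysialylation genes on each array, with vehicle hearts in blue and digoxin hearts in red, the replicate number above each point, and the group mean and SD as black bars. In St8sia4 the 5 digoxin hearts lie between -1.18 and -0.77, below all vehicle hearts, whereas the groups overlap in each of the other 7 genes.

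St8sia2, the polysialyltransferase gene known from development, did not separate the groups. In digoxin replicates 1 to 5 it stood at 0.0, 0.068, -0.069, -0.27 and -0.16, and in vehicle replicates 1 to 3 at 0.037, -0.20 and 0.15. The vehicle hearts spanned most of the range of the digoxin hearts. The means were -0.086 ± 0.13 (SD, n = 5) and -0.0059 ± 0.18 (SD, n = 3), and the change of -0.080 (SE 0.097) was smaller than the SD of either group. It was -0.0036 without vehicle replicate 3, -0.034 without digoxin replicate 4 and -0.18 without vehicle replicate 2.

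St8sia6, whose enzyme adds alpha-2,8-linked sialic acid mainly to O-glycans, had the second largest difference of the family, in the opposite direction to St8sia4. Its values were 0.37, 0.36, 0.29, 0.16 and 0.21 in digoxin replicates 1 to 5, and -0.024, 0.22 and -0.43 in vehicle replicates 1 to 3. All digoxin hearts were above 0, but vehicle replicate 2 lay above digoxin replicates 4 and 5, so the groups overlapped. The means were 0.28 ± 0.092 (SD, n = 5) and -0.078 ± 0.33 (SD, n = 3), a change of 0.35 (SE 0.13) or 1.28 times the vehicle level. The change was 0.18 without vehicle replicate 3, the lowest heart, and 0.50 without vehicle replicate 2, the highest of the vehicle hearts.

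The ganglioside enzymes of the family showed small differences. St8sia1 encodes GD3 synthase, which starts the b series of gangliosides. It stood at -0.00029, -0.11, 0.067, 0.20 and -0.086 in digoxin replicates 1 to 5 and at -0.099, 0.0 and -0.10 in vehicle replicates 1 to 3. Digoxin replicate 4 was the highest, and the remaining hearts of both groups were intermixed. The change was 0.080 (SE 0.073), and 0.034 without digoxin replicate 4.

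St8sia5, which encodes a sialyltransferase of the more complex gangliosides, averaged 0.071, -0.011, -0.029, -0.18 and -0.055 over its 2 probe sets in digoxin replicates 1 to 5. The vehicle replicates 1 to 3 stood at -0.16, 0.12 and 0.14. Vehicle replicates 2 and 3 were the highest of all hearts, while vehicle replicate 1 was second lowest, above digoxin replicate 4 alone. The change was -0.072 (SE 0.082), made up of -0.11 and -0.037 on the separate probe sets. Without vehicle replicate 1 it was -0.17, without digoxin replicate 4 it was -0.037, and without vehicle replicate 3 it was -0.019.

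St8sia3, whose enzyme adds short sialic acid chains to glycolipids and glycoproteins and is best known from brain, varied little in digoxin hearts. The digoxin values were -0.030, 0.0, 0.057, -0.034 and -0.020, all within the span of the vehicle values of -0.15, 0.028 and 0.091. The change was 0.0058 (SE 0.059), and leaving out single arrays gave -0.065 (without vehicle replicate 1) to 0.057 (without vehicle replicate 3).

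The carrier genes did not separate the groups either. Ncam1, which encodes NCAM, the main carrier of polysialic acid, stood at 0.039, 0.13, -0.025, 0.083 and 0.084 in digoxin replicates 1 to 5 and at 0.29, 0.0 and -0.18 in vehicle replicates 1 to 3. All digoxin hearts fell between the highest and the lowest vehicle heart. The means were 0.062 ± 0.058 (SD, n = 5) and 0.036 ± 0.24 (SD, n = 3), with a change of 0.026 (SE 0.095) that was 0.15 without vehicle replicate 1 and -0.084 without vehicle replicate 3. Its sign thus differed with the vehicle array left out.

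Ncam2, the paralogue of Ncam1 known from the olfactory system, hardly varied. Its values were -0.0044, 0.0, 0.0095, -0.023 and 0.0 in digoxin replicates 1 to 5 and -0.0039, 0.0 and 0.043 in vehicle replicates 1 to 3, with a change of -0.017 (SE 0.036). The change was -0.0017 without vehicle replicate 3, the highest of the hearts. Its range over the 8 arrays was 0.0662, smaller than in all but 2.08% of genes, against a median range of 0.322 over all genes and 1.40 for St8sia4. Whether a flat profile reflects a steady level or a signal near background cannot be read from centred values.

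Across the family, 4 genes had lower and 4 had higher means in digoxin hearts. The median log2 change was -0.0054 over the 8 genes and -0.011 over all 22180 genes. In the limma fit over all genes 1 of the 8, St8sia4, was called at an adjusted p below 0.05, against 1.36% of all genes, with 0.415% called lower and 0.947% called higher in digoxin hearts. The groups were without overlap in 1 of the 8, again St8sia4, against 8.16% of all genes, or 3.76% counting those lower in digoxin hearts. The family was chosen on this contrast, so nothing is read from these counts, from the call of St8sia4 or from how often it was kept. The call of St8sia4 was lost without vehicle replicate 1 or without vehicle replicate 2, and was made when any of the other 6 arrays was left out. Leaving out St8sia4 and St8sia6, the other 6 changes were at most 0.080 in size, close to the median size of 0.066 over all genes. In each of the 8 genes vehicle replicate 3 was the highest or the lowest of the vehicle hearts, which was also so in 81.1% of all genes. Digoxin replicate 4 was the highest or the lowest of the digoxin hearts in 6 of the 8, against 49.4% of all genes.

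**Figure D2:**
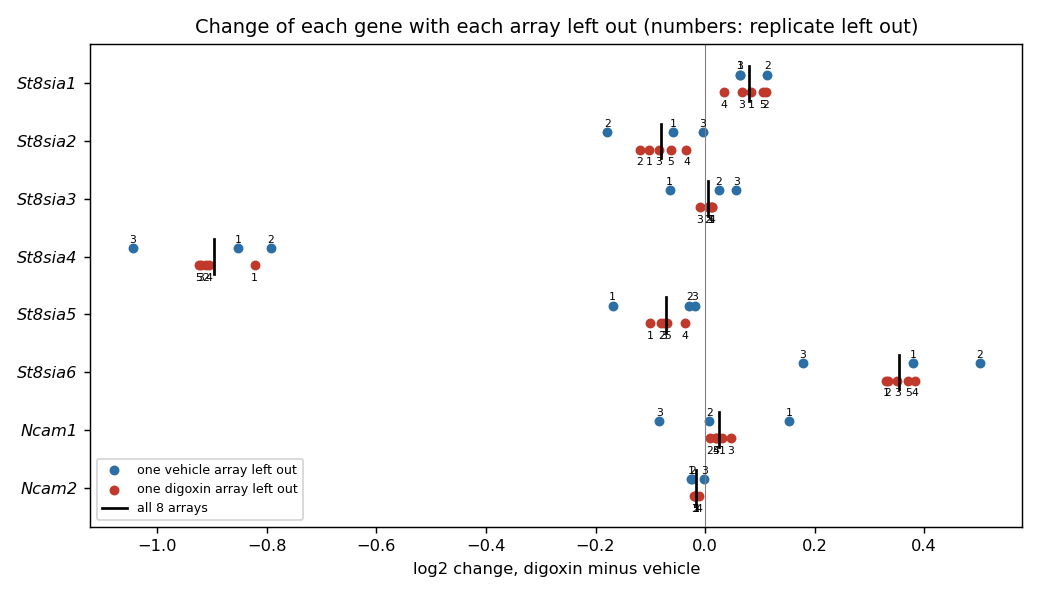
Log2 change between digoxin and vehicle hearts (horizontal axis) of each polysialylation gene with all 8 arrays (black line) and with each vehicle array (blue) or digoxin array (red) left out, numbered by the replicate left out. St8sia4 stays between -1.04 and -0.79 and St8sia6 between 0.18 and 0.50, while St8sia3 and Ncam1 take both signs.

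The other genes of the sialic acid pathway were read from 9 lists. Of 75 genes listed, 70 were measured, and in limma none rose and none fell at an adjusted p below 0.05. The smallest adjusted p was 0.0839. At an unadjusted p below 0.05 there were 9 of the 70 (12.9%), against 12.3% of all genes. The groups were without overlap in 6 of the 70 (8.57%), close to the 8.16% of all genes. The largest change in size among them, 0.44 for Cmah, was below that of St8sia4. So were the changes of 99.8% of all genes, since St8sia4 was chosen for its large fall.

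The supply of CMP-sialic acid, the donor used by every sialyltransferase, showed no gene past the test among 5 measured, and the median change was 0.040 (-0.051 without vehicle replicate 3). Gne, the bifunctional enzyme that controls the first steps of sialic acid synthesis, stood at 0.062 (SE 0.092), and Nans, the sialic acid synthase, at -0.060 (SE 0.070). Nanp, the phosphatase of the next step, stood at 0.096 (SE 0.11). Cmas, which activates sialic acid to CMP-sialic acid, stood at 0.040 (SE 0.066), and Slc35a1, the Golgi transporter of CMP-sialic acid, at -0.0031 (SE 0.087). Without vehicle replicate 3 the sign turned in Gne (-0.065), Nans (0.022), Nanp (-0.051) and Cmas (-0.036), and Slc35a1 stood at -0.12. With all arrays, the adjusted p values of these genes in limma lay between 0.770 and 0.994.

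The sialyltransferases of other linkages did not pass either. Of 6 alpha-2,3-sialyltransferase genes (median change 0.035, and 0.0016 without vehicle replicate 3) the one with the largest change was St3gal2, which sialylates gangliosides and O-glycans. It stood between -0.24 and -0.0085 in digoxin hearts with a median of -0.11, and at 0.0, 0.19 and 0.17 in vehicle replicates 1 to 3. The groups did not overlap, yet its change of -0.24 (SE 0.064) missed the threshold (adjusted p = 0.144 in limma). Of 8 alpha-2,6-sialyltransferase genes (median change -0.0065, and 0.025 without vehicle replicate 3) the largest change in size with all arrays was that of St6galnac1, which acts on O-glycans, at -0.22 (SE 0.11, adjusted p = 0.477 in limma). Its groups overlapped, and the change was -0.10 without vehicle replicate 3. St6galnac2, a further O-glycan sialyltransferase gene, named after its values were seen, had a change of nearly the same size in the other direction. It stood at 0.13 to 0.38 in digoxin hearts and at -0.011 to 0.00062 in vehicle hearts, without overlap, and its change of 0.22 (SE 0.058) missed the threshold (adjusted p = 0.139 in limma).

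In the synthesis of the ganglioside core and related glycolipids, none of 6 genes passed, and the median change was 0.037 (-0.070 without vehicle replicate 3). A4galt, which makes globotriaosylceramide and so draws lactosylceramide away from gangliosides, stood at 0.39, 0.052, 0.25, 0.39 and 0.41 in digoxin replicates 1 to 5 and at 0.0, 0.035 and -0.11 in vehicle replicates 1 to 3. All digoxin hearts were above all vehicle hearts, with digoxin replicate 2 nearest to them. The change was 0.33 (SE 0.087, adjusted p = 0.144 in limma), and A4galt passed without digoxin replicate 2 (change 0.39, adjusted p = 0.0374). Without vehicle replicate 3, B4galt5, a lactosylceramide synthase gene named after its values were seen, passed at a change of -0.31 (adjusted p = 0.0416). With all arrays the B4galt5 change was -0.15 (SE 0.11, adjusted p = 0.637 in limma) and its groups overlapped. Vehicle replicate 3, at -0.18, lay below all digoxin hearts, while vehicle replicates 1 and 2 stood at 0.25 and 0.38.

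Among 10 genes of sialic acid removal and modification none passed, and the median change was 0.00048 (-0.047 without vehicle replicate 3). Cmah, whose enzyme converts activated N-acetylneuraminic acid to its N-glycolyl form in mice, stood at -0.34, -0.21, -0.31, 0.45 and -0.51 in digoxin replicates 1 to 5 and at 0.28, 0.33 and 0.18 in vehicle replicates 1 to 3. A single digoxin heart, replicate 4, lay above the vehicle hearts and the other 4 lay below them. The change was -0.44 (SE 0.19, adjusted p = 0.381 in limma), and it was -0.60 with an adjusted p of 0.0137 without digoxin replicate 4. That array also had high T cell markers, as given below, and their part in the Cmah value was not tested.

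No gene around NCAM passed the test. Of 5 other carriers of polysialic acid none passed (median change -0.0025, and -0.032 without vehicle replicate 3), and Cd36, a fatty acid transporter that is polysialylated in milk, had the largest change at 0.12 (SE 0.046, adjusted p = 0.340 in limma). Of 10 NCAM partners and cleavage genes none passed (median 0.030, and -0.038 without vehicle replicate 3). Ret, the receptor tyrosine kinase of the GDNF family ligands, for which NCAM can serve as an alternative receptor, stood at -0.072, -0.14, -0.17, -0.37 and -0.13 in digoxin replicates 1 to 5 and at 0.060, 0.22 and 0.13 in vehicle replicates 1 to 3. Its groups did not overlap, and the change was -0.31 (SE 0.070, adjusted p = 0.0839 in limma). With array weights Ret passed (adjusted p = 0.0310).

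Of 11 other immunoglobulin-like adhesion molecule genes none passed. Their median of -0.071 was the furthest from 0 of the 9 lists, with 8 of the 11 means lower in digoxin hearts, and it was -0.014 without vehicle replicate 3. Cntn1, which encodes contactin 1, stood at -0.26 (SE 0.091, adjusted p = 0.289 in limma) and at -0.14 without vehicle replicate 3. Of 9 Siglec genes, which encode receptors that bind sialic acid on other cells, none passed (median -0.014, and 0.038 without vehicle replicate 3). Cd22, the Siglec of B cells, had the largest change at -0.12 (SE 0.061, adjusted p = 0.492 in limma), and stood at -0.045 without vehicle replicate 3.

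**Figure D3:**
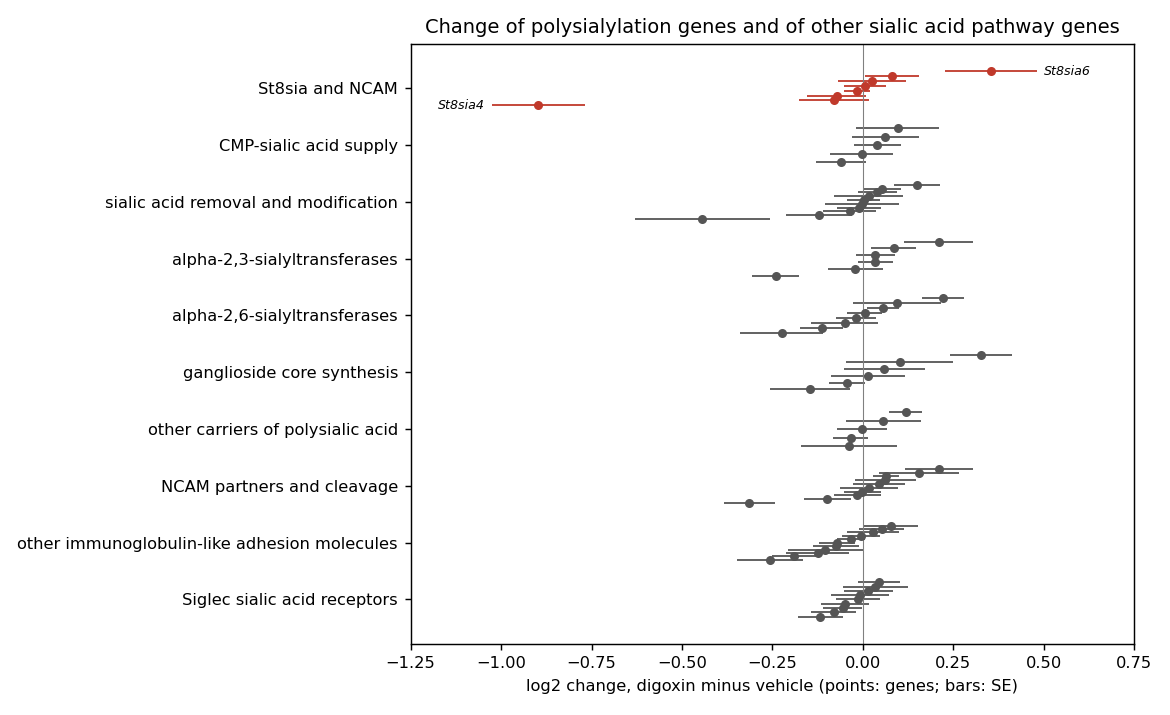
Log2 change between digoxin and vehicle hearts (horizontal axis; points are genes, bars the SE of the limma fit) for the 8 polysialylation genes (red) and the 70 measured genes of 9 other sialic acid and NCAM lists (grey). St8sia4 at -0.90, chosen for its large fall, lies outside the span of -0.44 to 0.33 of the other lists, and St8sia6 at 0.35 lies just above it.

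The genes whose profile over the 8 arrays was most like that of St8sia4 were found by the root mean square difference of log2 values after each gene was centred on its own mean, among 17277 genes that are not predicted, small RNA or olfactory or vomeronasal receptor genes. They were Clec2d (0.132), a C-type lectin-like gene, Phlda1 (0.136), Tnfsf10 (0.148), the gene of the death ligand TRAIL, Myct1 (0.156), an endothelial gene, and Ppp1r10 (0.170), a nuclear regulator of protein phosphatase 1. The median difference over the genes compared was 0.476. The likeness of these 5 genes includes the step between the groups, since their own changes were -0.80, -0.83, -0.70, -0.69 and -1.07. All 5 were without overlap, against 8.16% of all genes. Clec2d shared the low value of digoxin replicate 1, at -0.66 against -0.16 to -0.42 in the other digoxin hearts. In vehicle replicate 3, St8sia4, Clec2d, Phlda1, Tnfsf10, Myct1 and Ppp1r10 were each lower than in the other vehicle hearts. That array was the highest or the lowest of the vehicle hearts in 81.1% of all genes. The 5 genes were chosen for likeness over all 8 arrays, so such shared values follow from the choice.

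**Figure D4:**
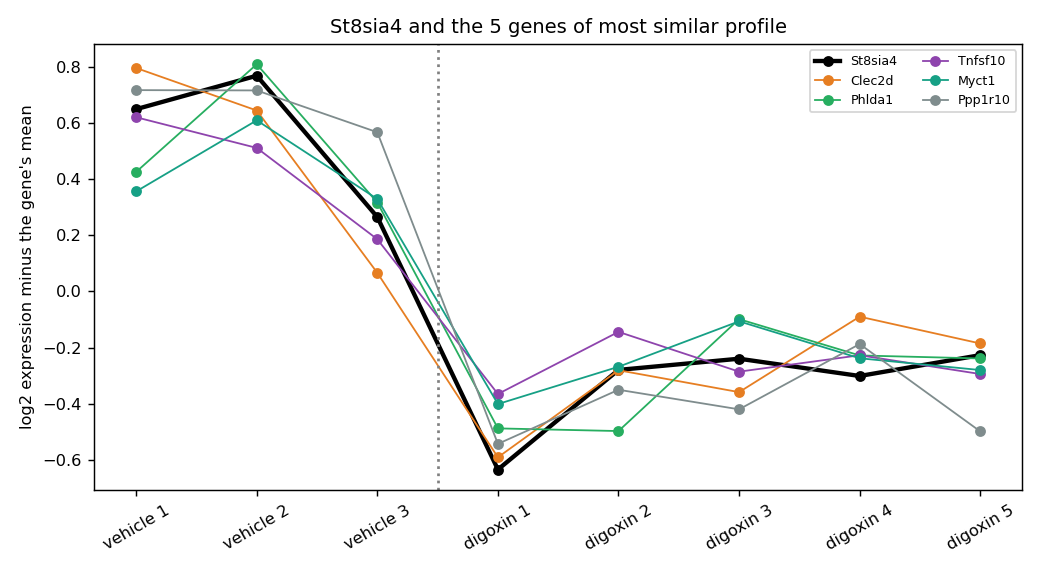
Log2 expression minus the mean of each gene over the 8 arrays (vertical axis) for St8sia4 (black) and the 5 genes of most similar profile, with vehicle arrays to the left and digoxin arrays to the right of the dotted line; lines only join the points of a gene. All 6 genes are above their mean in the 3 vehicle hearts and below it in the 5 digoxin hearts.

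Markers of other cells moved on some arrays and are given beside St8sia4. All 8 atrial cardiomyocyte markers had lower means in digoxin hearts, with a median change of -0.73, and 1 of them, Nr2f2, fell in limma (-0.48, SE 0.092, adjusted p = 0.0467). That call was kept only without vehicle replicate 3 among the fits that left out 1 array (adjusted p of 0.0395 to 0.127). The atrial marker mean ranged from -0.38 to 1.51 in digoxin hearts and from 0.25 to 1.99 in vehicle hearts. Nr2f2 itself spanned far less, at -0.066 to 0.090 in digoxin hearts and 0.36 to 0.74 in vehicle hearts, without overlap. Its call thus does not describe the atrial list as a whole. With the atrial mean as a covariate, an alternative chosen after the data were seen, the St8sia4 change was -0.82 (SE 0.14). Because the atrial markers themselves had lower means in digoxin hearts, this value does not separate atrial content from treatment.

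T cell genes were high on 1 digoxin array. In replicate 4, Cd3e stood at 2.85, Cd3g at 3.16, Cd4 at 2.43 and Cd8a at 2.14. The mean of 8 measured lymphocyte markers was 1.36, against -0.048 to 0.12 on the other 7 arrays. It rests on the T cell genes, since Cd79a, Ms4a1, Nkg7 and Klrb1c stood there at 0.11, 0.11, 0.0031 and 0.096. St8sia4 on that array, at -0.84, lay within the range of the other digoxin hearts, and its change without that array was -0.91. The marker means of the endothelial list (10 of 10 measured) ranged from -0.065 to 0.044 in digoxin hearts and from -0.19 to 0.039 in vehicle hearts. Those of the macrophage list (10 of 10) ranged from -0.085 to 0.22 and from -0.22 to 0.18. For the Schwann cell and nerve list (8 of 10 measured), of cells known to carry NCAM, they ranged from -0.0052 to 0.15 and from -0.061 to 0.050. No marker of the remaining lists was called. Of 6 epicardial and mesothelial markers 5 had lower means in digoxin hearts (median change -0.13), and the marker mean was -0.079 to 0.064 in digoxin replicates 1, 2, 3 and 5, below the vehicle hearts at 0.15 to 0.24, and 0.41 in digoxin replicate 4. Of 6 measured endocardial and lymphatic endothelial markers 4 had lower means (median -0.18), with marker means of 0.018 to 0.28 in digoxin and -0.089 to 0.29 in vehicle hearts. Of 8 pericyte and smooth muscle markers 7 had higher means (median 0.15), with marker means of 0.019 to 0.43 and -0.0018 to 0.14. Of 9 fibroblast markers 7 had lower means (median -0.085), and of 7 measured conduction system markers 5 (median -0.065). The medians were 0.022 for ventricular cardiomyocytes and -0.045 for neutrophils and mast cells. In each of the 12 marker lists the range of the marker mean overlapped between the groups. One endothelial marker, Esam, rose in limma (0.46, SE 0.089, adjusted p = 0.0486), a call kept only without vehicle replicate 2 among those fits (0.0461 to 0.127), and no macrophage, lymphocyte or Schwann cell marker was called. The part of these cell types in the St8sia4 value was not tested further.

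**Figure D5:**
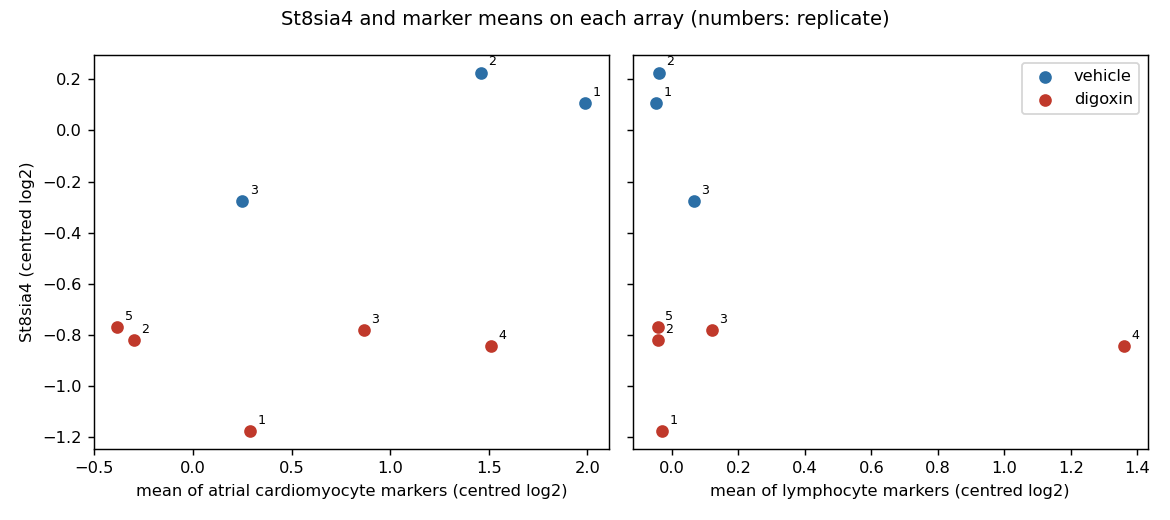
Centred log2 expression of St8sia4 (vertical axis) against the mean of the atrial cardiomyocyte markers (left) and of the lymphocyte markers (right) on each array, with vehicle hearts in blue and digoxin hearts in red and the replicate numbered. The atrial means run from -0.38 to 1.51 in digoxin hearts and from 0.25 to 1.99 in vehicle hearts. The digoxin array with a lymphocyte mean of 1.36, which rests on T cell genes, has an St8sia4 value of -0.84, close to those of digoxin replicates 2, 3 and 5.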

How the data were processed

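Arrays of 5 digoxin and 3 vehicle hearts were compared. Per the series design text, the authors applied Robust Multi-array Average within a suite of Galaxy tools. The submitters' processing notes list limma, with no version in the sources used. The deposited values are on a log2 scale, taken from that method, and had been centred probe set by probe set on a reference that is not stated. A constant centre cancels in every difference between arrays. Of 34351 probe sets, 23521 had 1 symbol in the platform annotation, 1814 had several and 9016 had none. Entrez identifiers of 23328 of the 23521 matched the RefSeq gene table, and 0 symbols differed. Probe sets with 1 symbol were averaged per gene, giving 22180 genes.

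The comparison used limma 3.58.1 under R 4.3.3, with lmFit and eBayes at their defaults, two-sided tests, Benjamini-Hochberg adjusted p over all genes, a threshold of 0.05 and no covariate. Each SE is that of this fit (residual degrees of freedom 6, prior 2.75). No label says that samples came from separate cultures or litters, so p-values rest on the spread between samples as numbered. The code of the fit was tested on simulated data, with independent normal values and the same spread of a gene on every array. Vehicle replicate 3 had a wider spread, so that test does not show that the fit suits these arrays. The members and lists were chosen with earlier results of these data known. Named by rule were all members, the 5 genes of CMP-sialic acid supply, genes past the test in another list or else its gene of largest change, and the 5 genes most like St8sia4. Sequences come from a RefSeq table on GRCm38.p6, which held 5 of the 8 members. Alternatives covered normalization, probe sets, variance model, array weights, threshold, replicate block and each array left out. After the data were seen, 2 were added: an atrial marker covariate, and leaving out both digoxin replicate 4 and vehicle replicate 3.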

Additional observations from a re-analysis of the deposited data

Results flagged for a closer look

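St8sia4 in digoxin replicate 1 stood at -1.18 on the centred log2 scale, further below the other 4 digoxin hearts than their own spread. The next lowest was -0.84, and the gap made up 0.818 of the range of the group, above the critical value of 0.71 for 5 samples. The change of St8sia4 was -0.82 without that heart. It was the single gene so marked among 21 genes looked at, and chance marks about 1 in 20 groups.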

How the results depend on the processing

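The count of 302 called genes was 614 with array weights, 493 at a threshold of 0.10, 12 with the replicate block, 500 with both digoxin replicate 4 and vehicle replicate 3 left out, and 166 to 374 with 1 array left out; 210 rose and 92 fell with all arrays, against 185 and 189 without vehicle replicate 3, 294 and 320 with array weights and 218 and 282 with those 2 left out. Nothing is read from the number of members called, because the family was chosen on this contrast. The number was 0 with the replicate block and 0 to 1 with 1 array left out, and 1 in every other setting run. The labels do not say that the numbers pair the samples. Same-numbered arrays correlated at -0.197, -0.0177 and 0.0236 in their deviations from the group means. The St8sia4 change with the replicate block was -0.94. Of 135 alternative values for the changes of the 8 members, 134 moved by less than the SD between replicates. The exception was Ncam2 with those 2 arrays left out (0.0032). The count includes the robust variance model and the settings on probe sets, which by construction cannot move a change. A turned sign within that SD was not counted as moved, as for St8sia2 at 0.053 with array weights. St8sia4 lay between -1.05 and -0.79 in every setting run.

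List medians moved further. With both arrays left out they were -0.065 for CMP-sialic acid supply, 0.029 for the alpha-2,6 enzymes, -0.070 for the ganglioside core and 0.012 for the adhesion molecules, and 1 gene of sialic acid removal was called (Cmah, adjusted p = 0.0126). With array weights the medians were 0.031 for the other carriers and -0.011 for the adhesion molecules, and with quantile normalization -0.037 for the latter. The ganglioside median was 0.13 with the atrial covariate. Of the NCAM partners, 1 gene (Ret) was called with array weights and 1 at the threshold of 0.10. With 1 array left out, the medians ranged from -0.051 to 0.10 for supply, -0.047 to 0.057 for removal (0 to 1 gene called), -0.070 to 0.086 for the ganglioside core (0 to 1 called), -0.032 to 0.072 for the carriers, -0.038 to 0.052 for the partners, -0.073 to -0.014 for the adhesion molecules and -0.068 to 0.038 for the Siglecs. The cause of these shifts was not tested. A filter on dim probe sets was not run, because centred values hold no absolute level and no signal over background.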
